A study of Homo sapiens with 5 samples.

Results

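RNA of U2OS cells with the highest level of an inducible E2F1 fusion (YFP-high) was compared with RNA of parental U2OS cells, gene by gene. U2OS is a human osteosarcoma cell line. The comparison took every gene name of the deposited count table, 27992 in all, and left out the row with no gene name and the counting program's classes of unassigned reads. Of these, 15099 gene names reached 1 count per 1000000 (CPM) in at least 1 of the 5 libraries of the series and were analysed; the other gene names were too low. The comparison used 2 of the 5 libraries, and the YFP-negative, YFP-low and YFP-medium libraries are given beside it where they show when a gene moved.

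The study asked how the amount of E2F1 bears on the fate of a cell. The YFP fractions came from U2OS cells carrying pTRIPZ-YFP-ER-E2F1, a doxycycline-inducible construct that joins YFP, the hormone-binding part of the oestrogen receptor (ER) and E2F1, and were parted by flow cytometry on YFP. All 5 groups, the parental one included, are labelled with 8% serum, 500 ng/ml doxycycline for 48 h and then 90 nM 4-hydroxytamoxifen (OHT) for 20 h more. Each group held 1 library, so no difference has a replicate check, no p-value is given, and YFP-high and parental cells differ at once in the construct, the sort on YFP and the level of E2F1, which cannot be told apart.

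E2F1 is a transcription factor that binds DNA together with a DP protein and is held inactive by the retinoblastoma protein until cells commit to S phase. It is known for switching on genes for cyclins, replication and nucleotide supply, and, when strongly active, genes of apoptosis such as TP73 and APAF1. The ER part of such a fusion keeps the protein inactive until OHT is added, while the YFP brightness of a cell follows how much of the fusion it holds.

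Reads assigned to genes came to 74.1 M for parental cells and 70.7 M for YFP-high, within a range of 70.7 M to 76.5 M over all libraries. Levels are CPM after TMM scaling, the trimmed mean of M values of edgeR; where 5 levels stand together they run from parental and YFP-negative over YFP-low and YFP-medium to YFP-high. Folds carry exact 95% intervals that cover counting error only. Calls needed a change past 2-fold on the log2 scale, with 0.5 CPM added to both levels, and an interval that leaves out no change. Below, rose and fell stand for these calls.

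The E2F1 transcript itself was at 86.1, 106, 163, 361 and 996 CPM. YFP-high thus held 11.6-fold (11.3 to 11.9) more than parental cells, and each YFP gate held more than the one below it. Reads of the fusion and of the endogenous transcript fall in the same row and were not told apart. For ESR1, which encodes oestrogen receptor alpha, 15, 3, 3, 16 and 25 reads were counted, too few to pass the filter, so it gives no measure of the fusion.

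In YFP-high 3189 genes rose against parental cells (21.1% of those analysed) and 2261 fell (15.0%), 5450 in all (36.1%). By comparison, YFP-negative cells, which carry the construct but were sorted as dim, had 327 genes higher (2.17%) and 442 lower (2.93%) than parental cells, 5.09% together. YFP-high against YFP-negative gave 3062 higher (20.3%) and 1712 lower (11.3%), 31.6% together. These comparisons share libraries, so their counts are set side by side and were not tested against each other. Of the genes called in YFP-high against parental cells 58.5% were higher. Scaling by total gene counts moved the median of the log2 ratios by -0.22 and gave 2648 higher and 3192 lower (45.3% higher), and the deposited TPM moved it by -0.10, so counts of higher and lower genes are relative to the TMM scaling.

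**Figure D1:**
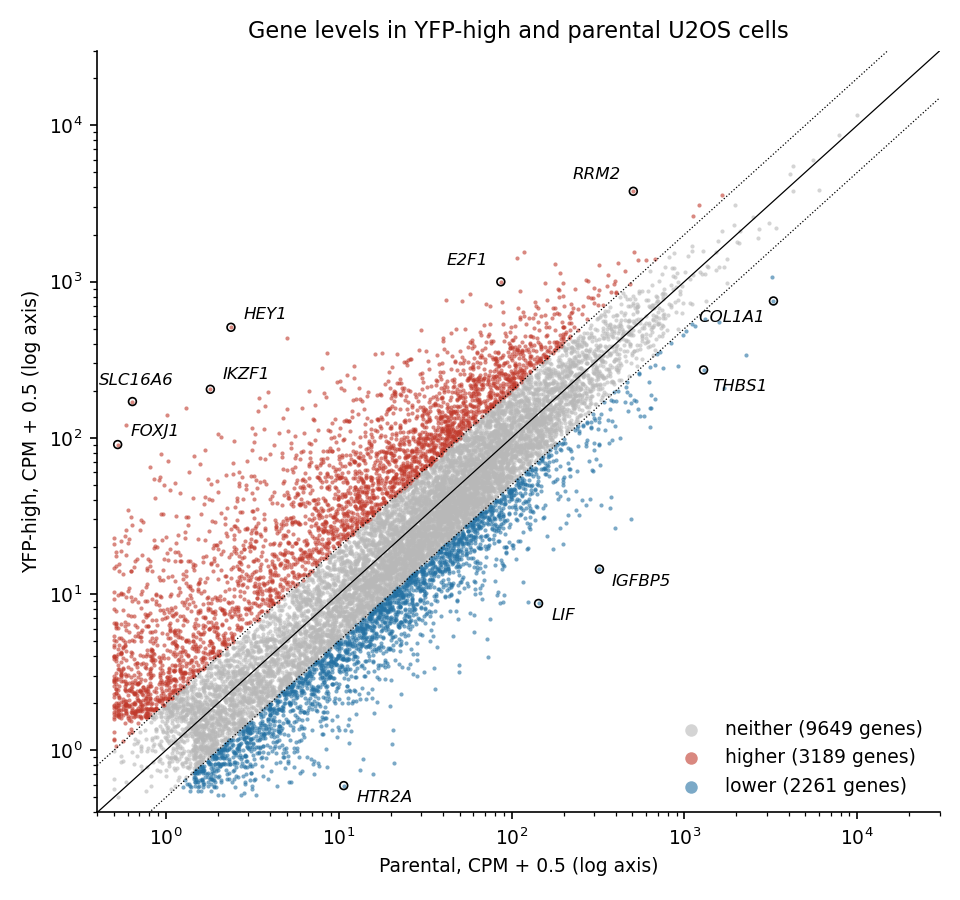
Level of each of the 15099 analysed genes in parental cells (x axis) and in YFP-high cells (y axis), both as CPM + 0.5 on log axes, 1 point a gene. The solid line marks equal levels and the dotted lines 2-fold; 3189 genes lie above as higher (red), 2261 below as lower (blue), and the genes far from the diagonal at low parental levels lie mostly above it.

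The sizes of the changes were uneven. Changes of at least 4-fold numbered 1253 upward and 349 downward, of at least 8-fold 459 and 57, and of at least 16-fold 158 and 9. All 52 genes past 32-fold on the log2 scale with the added 0.5 CPM were higher. Of 171 genes under 0.1 CPM in parental cells 163 were higher in YFP-high, though a gene that low passed the filter only through another library. Among the 2262 genes over 100 CPM in parental cells, 243 were higher and 275 lower. In 20 genes the parental library had at most 3 reads while YFP-high had at least 5 CPM, and no gene showed the reverse.

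Promoter sequences show what lies before the start of some genes that moved. A table of RefSeq promoter windows (GRCh38.p14, 250 bases before to 50 bases after a start site; the counts were made on hg19) held 35116 windows and matched 11043 of the 15099 analysed genes (73.1%). The E2F motif was searched as TTTCGCGC or TTTGGCGC on both strands. It stood in 1.15% of all windows, in 1.84% of 3524 windows of genes that rose, in 1.89% of 10451 windows of genes that neither rose nor fell, and in 0.732% of 2323 windows of genes that fell. In these shares the genes that rose were close to the unchanged genes, and the genes that fell were lower. Of the 12 genes that rose farthest 6 had a window, of the 12 that fell farthest 7, and none held the motif. At shares this low, so few genes cannot show a difference. Among genes at least 8-fold higher 2.37% of 506 windows held it, and among genes at least 8-fold lower 0 of 52.

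The windows below belong to 4 named genes that rose and whose window holds the motif, and to 1 of the genes that fell farthest. The window of the latter holds a match to TGANTCA, the pattern searched for AP-1, where N is any base. Capitals mark the match. IKZF1, chr7:50304466-50304765, plus strand, has its match 133 bases before the start site and is 1 of 3 windows of that gene. E2F1, chr20:33686336-33686635, minus strand, has it 20 bases before the start site. The E2F1 row also holds reads of the fusion, so a rise of the transcript from this start site was not measured. TP73, chr1:3652266-3652565, plus strand, has it 235 bases before the start site, in 1 of 3 windows. DCK, chr4:70993399-70993698, plus strand, has it from base 22 after the start. GALNTL2 (RefSeq symbol GALNT15), chr3:16174430-16174729, plus strand, has its AP-1 match 220 bases before the start site. A match is a description of these letters and not a binding site.
IKZF1: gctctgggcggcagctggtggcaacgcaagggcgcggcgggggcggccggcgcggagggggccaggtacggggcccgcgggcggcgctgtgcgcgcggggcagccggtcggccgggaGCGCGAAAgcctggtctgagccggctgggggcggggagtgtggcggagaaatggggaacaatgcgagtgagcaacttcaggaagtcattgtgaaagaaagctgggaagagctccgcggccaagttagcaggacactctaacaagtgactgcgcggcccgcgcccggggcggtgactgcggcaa
E2F1: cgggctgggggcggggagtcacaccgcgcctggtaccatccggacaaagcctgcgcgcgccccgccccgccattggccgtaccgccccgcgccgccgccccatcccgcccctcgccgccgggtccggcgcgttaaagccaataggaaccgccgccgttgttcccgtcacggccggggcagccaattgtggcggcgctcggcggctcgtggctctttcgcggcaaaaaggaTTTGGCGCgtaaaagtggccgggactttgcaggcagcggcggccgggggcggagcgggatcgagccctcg
TP73: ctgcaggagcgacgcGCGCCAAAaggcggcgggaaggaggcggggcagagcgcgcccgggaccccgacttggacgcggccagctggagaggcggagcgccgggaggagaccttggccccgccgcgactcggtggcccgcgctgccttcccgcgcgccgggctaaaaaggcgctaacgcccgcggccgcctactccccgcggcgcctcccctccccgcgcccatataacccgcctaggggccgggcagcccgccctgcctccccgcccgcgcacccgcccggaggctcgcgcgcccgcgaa
DCK: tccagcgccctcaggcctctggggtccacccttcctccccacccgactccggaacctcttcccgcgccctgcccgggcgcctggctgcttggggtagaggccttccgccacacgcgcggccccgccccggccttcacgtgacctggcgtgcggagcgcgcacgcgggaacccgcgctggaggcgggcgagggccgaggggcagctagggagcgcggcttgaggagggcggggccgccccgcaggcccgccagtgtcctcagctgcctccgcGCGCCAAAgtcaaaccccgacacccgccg
GALNTL2: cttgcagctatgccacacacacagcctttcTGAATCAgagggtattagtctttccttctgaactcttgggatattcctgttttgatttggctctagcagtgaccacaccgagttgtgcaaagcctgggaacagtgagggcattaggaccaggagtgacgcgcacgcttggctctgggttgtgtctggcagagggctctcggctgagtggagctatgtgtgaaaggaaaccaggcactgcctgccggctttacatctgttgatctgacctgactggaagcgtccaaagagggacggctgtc

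AP-1 matches stood in 5.56% of windows of genes that rose, 6.72% of those that fell, 5.10% of the unchanged and 7.71% of all windows. The E-box CACGTG had 7.78%, 8.95%, 9.47% and 7.26% in the same order, and the CHR element TTTGAA, found in many promoters of mitotic genes, 9.79%, 11.1%, 10.7% and 15.2%. Windows of 1 gene overlap or lie close to each other, so the windows are not independent.

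**Figure D2:**
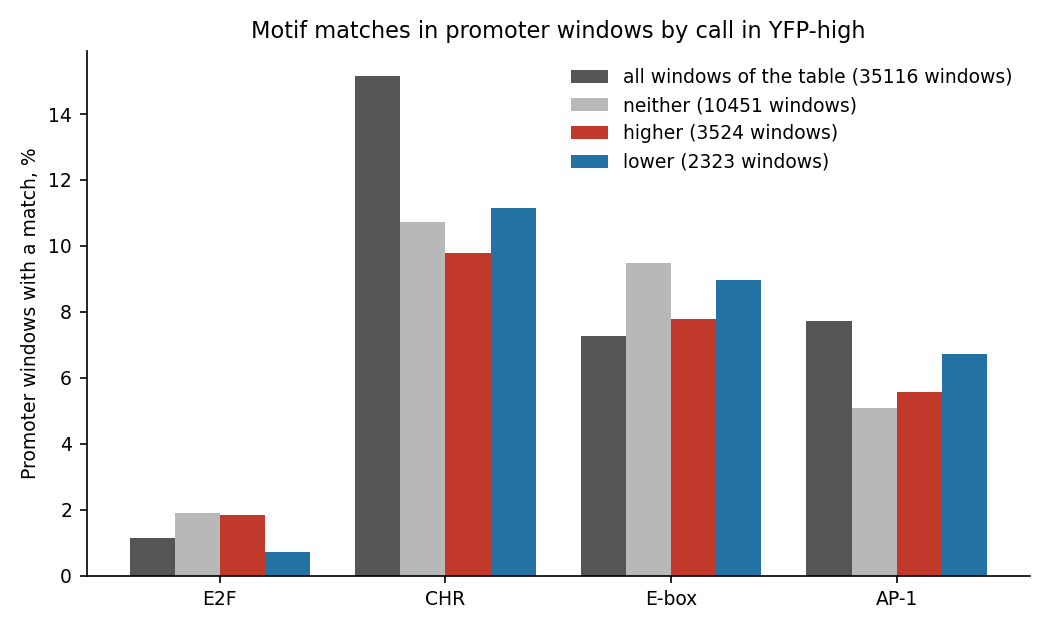
Share of promoter windows that hold a match to each of 4 motifs (y axis, %), for all windows of the RefSeq table and for windows of genes that rose, fell or did neither in YFP-high against parental cells. E2F matches stood in 0.732% of windows of genes that fell and in 1.84% of windows of genes that rose.

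Of the 12 genes that rose farthest HEY1, at 148 reads, had the most reads in parental cells. FOXJ1, the forkhead factor that builds motile cilia, had 2, 158, 1059, 3908 and 5752 reads, a ratio of 3550 with an interval of 982 to 29317. SLC16A6, a monocarboxylate transporter, was at 0.139, 4.08, 14.8, 68.4 and 170.0 CPM, and FA2H, a fatty acid hydroxylase of myelin lipids, at 0.0887, 2.01, 7.63, 41.5 and 120.5 CPM. Parental cells were the lowest library for all 3, and YFP-high the highest. HEY1, a transcription repressor switched on by NOTCH, was at 1.88, 14.4, 52.0, 193 and 509 CPM and 271-fold (231 to 321) higher. NXPH3, a neurexin ligand, was at 0.520, 2.35, 7.64, 43.9 and 139 CPM. Both climbed at every step from parental cells to YFP-high.

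In 4 of the 12 farthest genes parental cells had no read at all. LHX3, a LIM homeobox factor, had 0, 1, 8, 12 and 899 reads, and against the floor of 3 reads was at least 369.9-fold higher. UNCX, a paired-type homeobox factor, had 0, 17, 50, 81 and 1301 reads and was at least 535-fold higher. TMEM155 and GALR1, a galanin receptor, were at least 586-fold and 258-fold higher. In LHX3 nearly all reads came from YFP-high, whereas UNCX and GALR1 gained reads in each fraction. ZBTB16, a zinc finger repressor, FGF4, a fibroblast growth factor, and GDF10, a ligand of the TGF-beta family, each had 1 read in parental cells and 1153, 1084 and 939 reads in YFP-high; their ratios of 1423, 1338 and 1159 rest on that 1 read and have wide intervals (255 to 56256, 239.6 to 52892 and 208 to 45824).

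The genes that fell farthest had parental levels of 6.69 to 322 CPM. HTR2A, a serotonin receptor, had 803, 283, 99, 36 and 6 reads and was 108-fold (49.6 to 296) lower in YFP-high. GALNTL2, an enzyme that starts O-linked sugar chains, was 75.5-fold (44.0 to 142) lower, FOXS1, a forkhead factor, 62.2-fold (40.5 to 101), and WISP1, a secreted matricellular protein, 51.2-fold (31.4 to 90.0). IGFBP5, which binds insulin-like growth factors outside the cell, was at 322, 89.0, 54.3, 24.98 and 13.9 CPM and LIF, a cytokine akin to IL-6, at 143, 96.8, 50.5, 24.2 and 8.20 CPM. All of these fell at each step, and IGFBP5, FOXS1 and WISP1 fell most at the first step, from parental to YFP-negative cells. CXCR7, a chemokine receptor, was 33.5-fold (24.3 to 47.5) lower and lay lowest in YFP-medium. PCDH18, a protocadherin, SALL4, a stem-cell zinc finger factor, MIAT, a long non-coding RNA, EDN2, an endothelin, and CCDC129 were 35.5, 32.9, 20.9, 23.7 and 28.4-fold lower.

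Many genes moved at every step. Of 2013 genes that rose and had at least 20 CPM in either library, 1221 were higher at each of the 4 steps between neighbouring libraries; of 1065 that fell, 727 were lower at each step. IKZF1, a zinc finger factor of lymphoid cells, was at 1.31, 4.46, 15.7, 56.2 and 204 CPM. SHISA6, an accessory protein of glutamate receptors, was at 0.139, 0.911, 2.70, 11.01 and 27.3 CPM. On the lower side PMEPA1, a TGF-beta feedback protein, was at 369, 205, 136, 66.3 and 34.8 CPM, and FAM46B at 30.7, 14.9, 9.85, 6.45 and 2.69 CPM. MIAT and FLJ41484 followed the same order, the latter at 49.3, 21.7, 13.2, 7.16 and 2.99 CPM.

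Some of the difference from parental cells was already present in cells sorted as YFP-negative, and a comparison within the construct line would not show it. The genes in this paragraph were chosen for that pattern, so their values are a description. CXCL14, a chemokine, was at 74.0, 4.95, 3.11, 2.71 and 6.43 CPM, and MN1, a transcription coregulator, at 198, 18.9, 12.03, 6.68 and 20.3 CPM. LRRC15, a surface protein of mesenchymal cells, was at 16.6, 2.22, 2.16, 2.08 and 2.35 CPM. In these 3 the drop lay between parental and YFP-negative cells, with log2 ratios of -3.77, -3.35 and -2.66, against 0.35, 0.10 and 0.07 between YFP-negative and YFP-high. GPAT2, PODNL1 and ALPP, a placental alkaline phosphatase, were 7.69, 5.13 and 4.59-fold lower than in parental cells. In the other direction, IL13RA2, a decoy receptor for interleukin 13, was at 0.0761, 5.42, 7.34, 6.95 and 6.10 CPM, and CLDN1, a tight junction protein, at 12.7, 67.8, 64.1, 58.9 and 78.8 CPM. TMEM71, C12orf39, CCDC148 and ELTD1, an adhesion receptor of vessels, were 13.1, 6.39, 5.48 and 3.48-fold higher than in parental cells.

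Other genes left the parental level in YFP-negative cells and lay nearer to it again in YFP-high. WNT11, a WNT ligand, was at 14.4, 0.276, 0.284, 0.384 and 4.49 CPM; its log2 ratio was -1.58 against parental and 2.69 against YFP-negative cells. NTRK3, a neurotrophin receptor, was at 7.63, 0.851, 1.15, 0.797 and 2.71 CPM, and LAMA5, a laminin chain, at 373, 75.4, 92.3, 109 and 152 CPM. BMP4, a bone morphogenetic protein, was at 136, 30.7, 30.8, 33.7 and 60.5 CPM, and TET1, an enzyme that oxidises methylated DNA, at 26.0, 4.99, 4.85, 5.34 and 9.33 CPM. All of these count as lower against parental cells and are above YFP-negative cells. NLRP3, the sensor of an inflammasome, was at 2.94, 16.97, 18.6, 13.8 and 6.38 CPM; SLAMF7, an immune receptor, at 4.25, 22.7, 20.7, 15.4 and 9.17 CPM; RAC2, a small GTPase of blood cells, at 8.84, 35.7, 39.96, 33.0 and 22.4 CPM. ANTXR2, LPXN and LOC152225 had the same shape, with log2 ratios of 1.02, 1.46 and 1.91 against parental and -1.02, -0.71 and -0.68 against YFP-negative cells. NLRP3, SLAMF7 and ANTXR2 were no longer called under total counts, at 0.79, 0.81 and 0.79, with the TPM or with 2 CPM added.

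A further set of named genes was called against parental cells but not against YFP-negative cells. Those described below are TFDP1, RBL2, MCM6, TIMELESS, POLA2, MTHFD1, KIF20A, HIST1H2AC, BNIP3, LFNG, SPRY4, CTF1, NFKBIZ, IFI44, LSS, IDI1, CTSL1, HSPB1, KCND1, CA12, COL1A1, LCP1, ERG, TEK, VWF, KRT5, KRT14, SYP, RBFOX3 and REEP5. Each is described against parental cells, and its YFP-negative level is part of that difference.

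**Figure D3:**
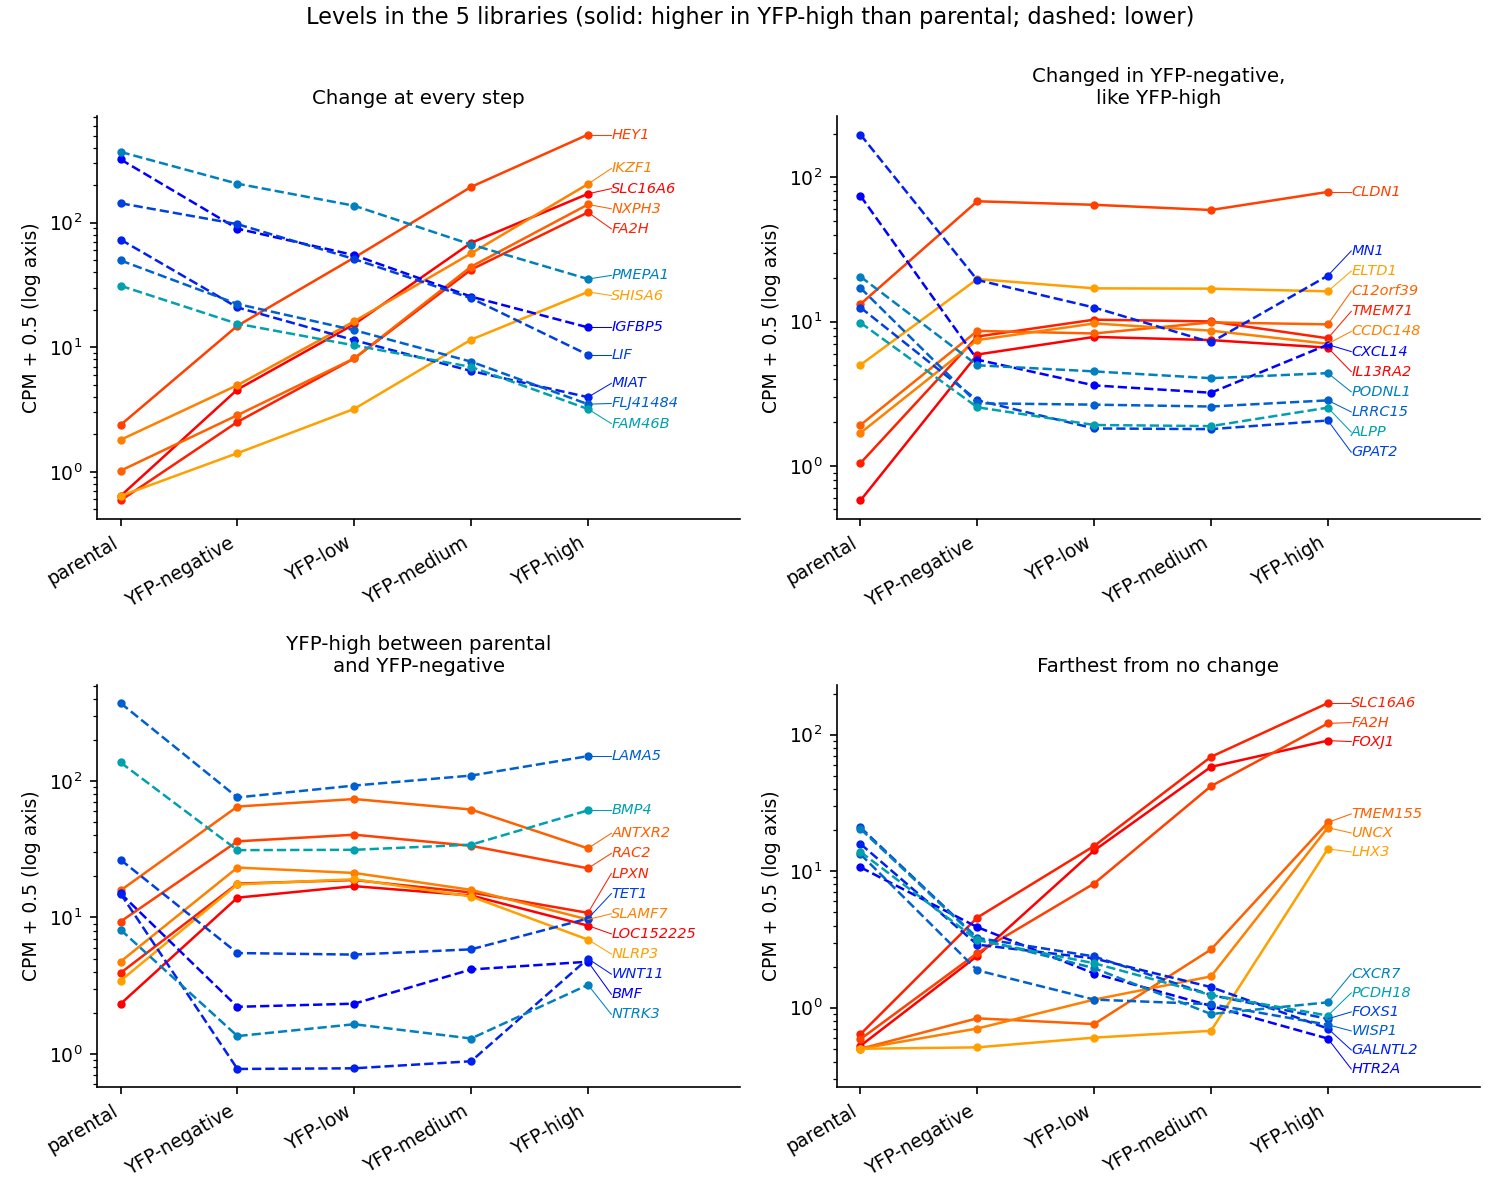
Levels (CPM + 0.5, log axis) of named genes in the 5 libraries, ordered from parental to YFP-high; lines join the libraries of a gene, solid for genes higher and dashed for genes lower in YFP-high than in parental cells. Genes of the upper left panel move at every step, those of the upper right differ mainly between parental and YFP-negative cells, those of the lower left lie between both in YFP-high, and the lower right panel shows 6 genes per direction farthest from no change.

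Of all analysed genes 21.1% rose and 15.0% fell, and the counts of each list below stand beside these shares. Of 10 analysed E2F and DP factors 5 rose and 0 fell, and 1 of the 5 is E2F1 itself, for which the sort selects. The list's median log2 ratio, E2F1 included, was 0.73 against -0.05 over all analysed genes, and 0.39 with no filter. E2F2, an activator like E2F1, was at 44.5, 36.7, 61.7, 117 and 195 CPM, E2F8, a repressor of the family, at 19.6, 27.1, 69.4, 106 and 79.7 CPM, and TFDP1, the main DP partner, at 197, 259.6, 374, 523 and 510.4 CPM. E2F2 was highest in YFP-high, whereas E2F8 and TFDP1 were highest in YFP-medium. Of 12 pocket, MuvB and MYB proteins 4 rose and 2 fell. MYB, a factor of blood progenitors, was at 2.90, 3.50, 10.4, 58.4 and 147 CPM and MYBL1, its relative, at 33.4, 32.8, 64.3, 108 and 177 CPM; LIN54, the DNA-binding subunit of the MuvB complex, was 5.49-fold (5.31 to 5.68) higher. The 2 that fell were LIN52, another MuvB subunit, at 3.39-fold (3.08 to 3.74), and RBL2, the pocket protein p130, at 2.30-fold (2.19 to 2.42).

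Some cyclins of the G1/S step and most analysed inhibitors of their kinases rose. Of 12 G1 and S cyclins, kinases and CDC25A 5 rose and 2 fell (median 0.45). CCNE1 and CCNE2, the E-type cyclins that drive S-phase entry, were at 70.7, 157, 433, 656 and 719 CPM and at 23.4, 53.9, 161, 290.4 and 306 CPM. CCND3, a D-type cyclin, was at 57.2, 179, 486, 816 and 835 CPM, so YFP-negative cells already held more than parental cells of all 3. CDC25A, the phosphatase that activates CDK2, was 6.87-fold (6.65 to 7.09) higher. CCND2 and CDK6, a D-type cyclin and a kinase that D-type cyclins bind, fell, with 421, 343, 286, 174 and 98.4 CPM for CDK6 and a fold of 3.58 for CCND2.

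Of 6 analysed CDK inhibitors 5 rose and 0 fell, and the median log2 ratio of 2.25 was the highest of the 55 lists. CDKN1C (p57) was at 6.38, 3.16, 3.98, 13.1 and 91.4 CPM, a rise that lay almost wholly in the last 2 gates. CDKN2C (p18) was at 53.5, 61.8, 182, 378 and 494 CPM, and CDKN1B (p27) at 58.4, 47.4, 127, 245 and 284 CPM. CDKN2D (p19) was 4.83-fold (4.50 to 5.19) higher. CDKN1C was lower in YFP-negative than in parental cells, whereas CDKN2C was already higher in YFP-low.

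Genes that copy DNA did not rise as a group. Among 18 replication licensing genes 1 rose and 4 fell (median -0.31; with YFP-negative cells as baseline the median was 0.01). DBF4, the activator of the CDC7 kinase, was at 65.2, 90.7, 184, 281 and 327 CPM and is the gene that rose. MCM5, a subunit of the replicative helicase, was at 239, 156, 102, 83.4 and 61.1 CPM, MCM6, another subunit, at 164, 95.2, 70.0, 64.6 and 56.3 CPM, and ORC1, of the origin recognition complex, at 35.8, 29.4, 20.5, 14.8 and 9.56 CPM. In CPM the largest single step of MCM5 and MCM6 was from parental to YFP-negative cells, and against YFP-negative cells MCM6 was no longer called (log2 ratio -0.75). Of 31 replication fork genes 4 rose and 3 fell, and the median of -0.01 became 0.04 under DESeq2's size factors. DSCC1, a cohesion factor, was 4.96-fold (4.81 to 5.12) higher and POLE, the leading-strand polymerase, 3.42-fold (3.36 to 3.49), whereas TIMELESS and POLA2 were 2.38 and 2.29-fold lower, neither of which was called against YFP-negative cells.

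Of 18 nucleotide supply genes 3 rose and 1 fell (median 0.29), and the rises began in YFP-negative cells. RRM2, the regulated subunit of ribonucleotide reductase, was at 505, 966, 2476, 3808 and 3780.4 CPM. DCK, which salvages deoxycytidine, was at 69.0, 133, 329, 509 and 528 CPM, and IMPDH1, an enzyme of guanine nucleotide synthesis, was 3.21-fold (3.08 to 3.35) higher. RRM2 and DCK levelled off between YFP-medium and YFP-high. MTHFD1, of the folate cycle, fell 2.33-fold (2.28 to 2.38).

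Mitosis genes hardly passed the size rule. Of 38, PRC1, a spindle midzone protein, rose 2.58-fold (2.53 to 2.63), KIF20A, a kinesin, fell 2.55-fold (2.45 to 2.64), and 36 did neither. The median of 0.10 turned to -0.14 with total counts and -0.01 with the TPM. MKI67, the proliferation marker Ki-67, was at 865, 709, 1416, 1719 and 1533 CPM, higher in all 3 YFP-positive fractions than in parental cells and short of 2-fold in YFP-high (1.77-fold). Of 16 replication-dependent histone genes 1 rose and 2 fell; HIST1H2AC was at 46.1, 14.2, 16.6, 14.7 and 15.8 CPM, with its drop between parental and YFP-negative cells. That list's median of -0.04 turned to 0.00 with DESeq2's size factors and to 0.52 with YFP-negative cells as baseline, and counts of these near-identical genes are uncertain. Of 38 genes of DNA damage and repair 2 rose and 6 fell (median -0.25). FANCA, of the Fanconi core complex, was 3.44-fold (3.34 to 3.55) higher, and PMS2, a mismatch repair protein with near-identical pseudogenes that make its count uncertain, 4.11-fold (3.78 to 4.47) lower. ATR, the replication stress kinase, was 2.97-fold (2.76 to 3.20) lower.

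Death gene lists held higher and lower genes, as did all analysed genes (21.1% and 15.0%). These shares were 41.7% and 16.7% for the p53 family, 40% and 20% for BH3-only proteins and 25% and 25% for BCL2 relatives. They were 13.3% and 20% for p53 targets, 23.5% and 11.8% for apoptosome and caspases, and 8.33% and 16.7% for death receptors. Of 12 genes of the p53 family and its regulators 5 rose and 2 fell (median 0.38). TP73, the p53 relative shown above with an E2F motif in 1 window, was at 20.5, 47.0, 155, 237 and 194 CPM. PPP1R13B (ASPP1), which steers p53 to death genes, was 5.92-fold (5.55 to 6.31) higher, and PPM1D, a phosphatase that acts against p53, 3.72-fold (3.63 to 3.82). PPP1R13L (iASPP), the inhibitory relative of ASPP1, was 3.53-fold (3.36 to 3.71) lower. Of 30 p53 targets 4 rose and 6 fell (median -0.27): POLH, a translesion polymerase, and SESN1, a sestrin, were 3.78 and 3.54-fold higher, and XPC, a damage sensor of nucleotide excision repair, and PLK2, a kinase, 4.27 and 3.27-fold lower.

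The BH3-only proteins, which start mitochondrial apoptosis, had 4 of 10 genes higher and 2 lower (median 0.71). BCL2L11 (BIM) was at 41.7, 28.1, 59.6, 133 and 210.4 CPM, BBC3 (PUMA) at 17.2, 17.6, 15.7, 19.2 and 51.0 CPM, and HRK at 1.51, 1.11, 1.25, 3.54 and 11.9 CPM. BBC3 and HRK moved little before the highest gates. BMF and BNIP3 fell, BMF at 14.5, 1.71, 1.84, 3.66 and 4.24 CPM, where YFP-high lay above YFP-negative cells. Among 8 BCL2 survival proteins and BAX/BAK relatives 2 rose and 2 fell. BCL2, which blocks that pathway, was at 10.7, 44.0, 151, 260.1 and 251 CPM and 23.4-fold (21.9 to 25.1) higher, while BCL2L1 (BCL-XL) was at 167, 248, 236, 172 and 82.5 CPM and fell 2.03-fold, a call lost with DESeq2's size factors (log2 ratio -0.97).

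Downstream, APAF1, the scaffold of the apoptosome, was at 37.7, 38.6, 68.6, 145 and 296 CPM, with its rise in the YFP-positive fractions. CASP8 and CASP9, initiator caspases, were 3.87-fold (3.54 to 4.24) and 2.25-fold (1.99 to 2.55) lower, and CASP9 was not called with 2 CPM added (log2 ratio -0.94). The list of apoptosome and caspases held 4 higher and 2 lower of 17, and its median, 0.07, became -0.15 under total counts and -0.47 with YFP-negative cells as baseline. Death receptors and adaptors had 1 higher and 2 lower of 12; TNFRSF1A, the TNF receptor, was at 111, 99.4, 82.2, 54.4 and 21.4 CPM, and FADD, the adaptor of CASP8, 2.60-fold (2.42 to 2.79) lower. MAP3K5 (ASK1), a stress kinase that signals to JNK and p38, was at 9.29, 21.7, 47.9, 119 and 227 CPM, the larger of 2 rises among 17 genes of that list, whose median of 0.10 turned to -0.13 with total counts.

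**Figure D4:**
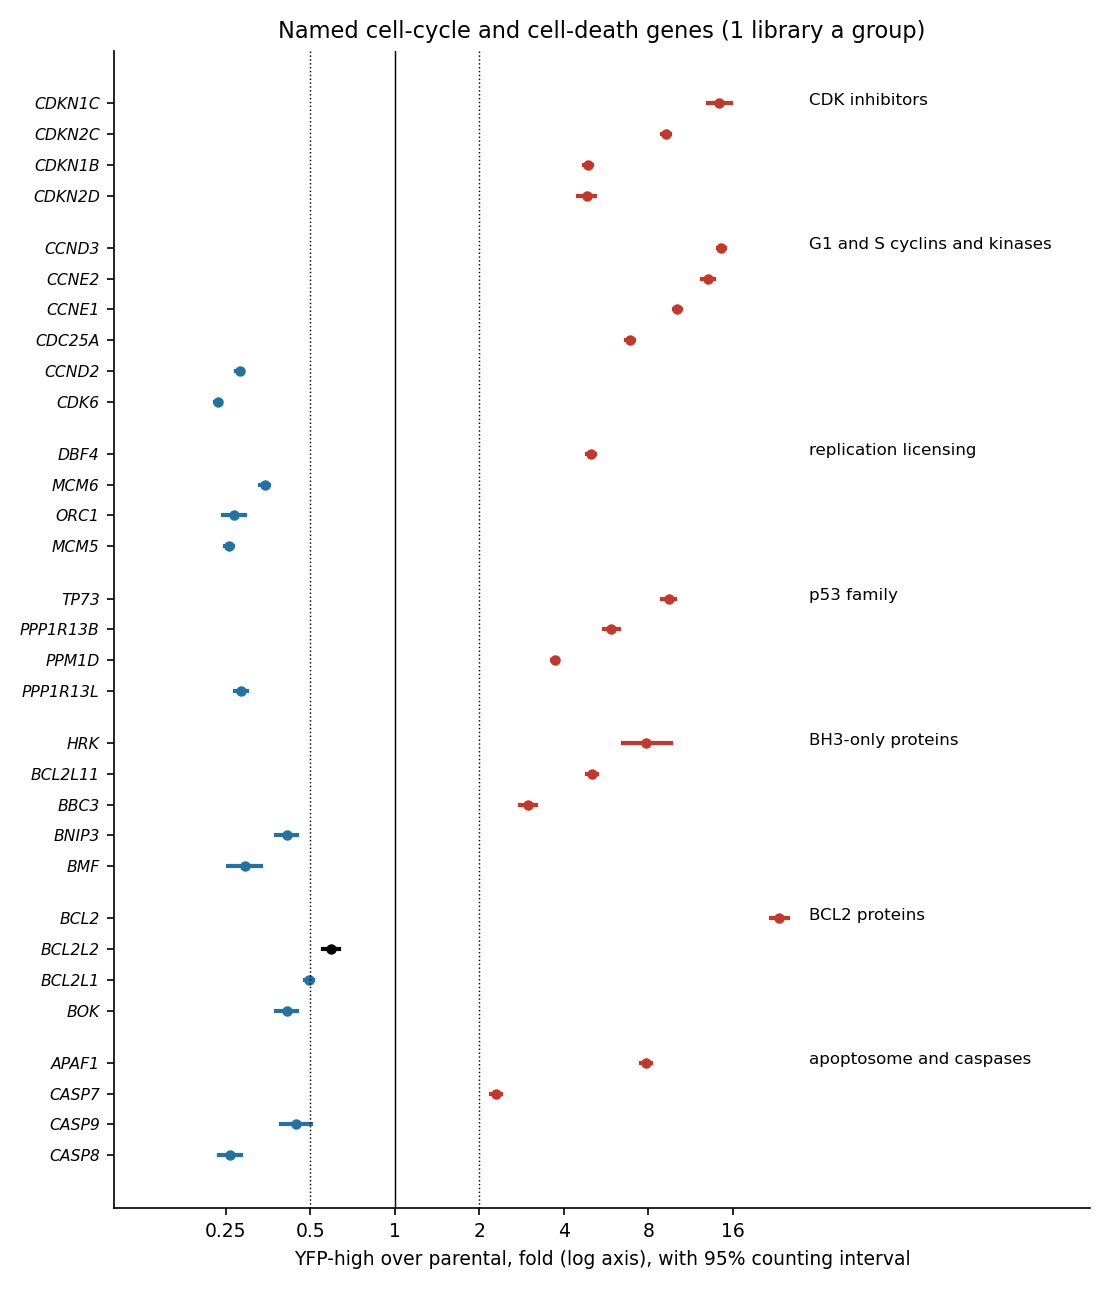
Fold of YFP-high over parental cells (log axis) for genes of 7 lists of the cell cycle and cell death; points give the ratio, bars the exact 95% counting interval, and dotted lines 2-fold. All 4 CDK inhibitors shown lie above 2-fold, and licensing, BH3-only, BCL2 and caspase genes lie on both sides. The genes were chosen per list by absolute log2 ratio, with called members against the list's direction added. These positions therefore partly follow from the choice and do not compare the lists.

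Ion channels and developmental factors held more higher than lower genes, as did all analysed genes (21.1% higher and 15.0% lower). Of 38 potassium channel genes 25 rose (65.8%) and 2 fell (5.26%), with a median of 1.62. KCNA3, a voltage-gated channel, was at 1.58, 4.71, 8.78, 27.2 and 101 CPM, and KCNK2, a leak channel, at 0.456, 0.791, 3.02, 13.0 and 31.9 CPM; KCNK10 was 29.5-fold (24.3 to 36.1) higher. The 2 that fell were KCNN4, a calcium-activated channel, at 5.71-fold (5.34 to 6.12), and KCND1 at 3.45-fold (2.93 to 4.07). Of 42 homeobox factors outside the HOX clusters 25 rose and 4 fell (median 1.33, and 0.74 with no filter). LHX2 was at 0.177, 0.575, 2.47, 6.42 and 16.2 CPM, BARX2 at 0.444, 0.551, 1.60, 4.66 and 21.8 CPM and IRX4 at 2.09, 2.01, 2.61, 6.43 and 40.5 CPM. Some of these genes had under 1 CPM in parental cells and entered the analysis through the fractions in which they are high, so the share that rose is not comparable with that of genes expressed in all 5 libraries.

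Of 32 listed forkhead factors 17 passed the filter, FOXJ1 only through the fractions where it is high, and 9 of the 17 were higher and 1 lower. Their median of 1.17 was 0.34 with no filter, 0.79 with 2 CPM added and 0.72 with the TPM. FOXF1 was 10.5-fold and FOXF2 6.59-fold above parental cells. HOX genes went both ways, 12 of 32 higher (37.5%) and 9 lower (28.1%), beside 21.1% and 15.0% of all analysed genes. HOXA13, of limb and hindgut patterning, was at 5.52, 3.78, 4.34, 11.8 and 80.6 CPM, and HOXA10 at 17.03, 21.7, 34.8, 65.5 and 136 CPM. Both HOXA genes were highest in YFP-high. Synaptic genes had 21 of 41 higher and 5 lower (median 1.00, and 0.66 with no filter). SYT7, a calcium sensor of vesicle release, was at 8.09, 13.8, 28.1, 102 and 351 CPM. SHISA7 and SV2B were 283-fold (137 to 706) and 356-fold (121 to 1729) higher, ratios that rest on 7 and 3 reads in parental cells. Both passed the filter only through fractions where they are high. With the TPM their log2 ratios were 4.27 and 2.64, against 5.44 and 4.71 with the counts. Of 57 listed receptors for neurotransmitters and peptides 33 passed the filter, some only through the fraction where they are high, and of these 16 were higher and 5 lower; their median of 0.75 was 0.17 with no filter. GABBR2, a subunit of the GABA-B receptor, was at 1.19, 2.29, 4.34, 12.1 and 82.9 CPM, DRD2, a dopamine receptor, at 0.203, 0.408, 1.16, 3.01 and 25.1 CPM, and NTSR1, the neurotensin receptor, at 0.355, 0.132, 0.336, 0.339 and 19.3 CPM. Only in YFP-high was NTSR1 above 1 CPM.

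Of 22 transporters that export drugs or carry lactate and its kin 12 rose, 4 fell and 6 did neither. ABCG2, a drug efflux pump, was at 4.51, 32.8, 130.3, 297 and 437 CPM, 96.8-fold (87.2 to 108) above parental cells. SLC16A1 (MCT1), a lactate transporter, was at 177, 389, 939.9, 1451 and 1293 CPM, and SLC16A10 was 7.36-fold (6.12 to 8.90) higher. ABCG2 rose at every step and was already well above parental cells in YFP-negative.

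Signalling lists went both ways, as did all analysed genes (21.1% higher and 15.0% lower). Of 17 NOTCH pathway genes 8 rose and 2 fell (median 0.57, and 0.28 with no filter). The ligands JAG2 and DLL1 were at 6.66, 6.87, 13.9, 48.0 and 129 CPM and at 0.634, 0.432, 0.685, 2.30 and 17.9 CPM, and DLL4 had 2 reads in parental cells and 357 in YFP-high, a ratio of 220.3 with an interval of 60.5 to 1826. MAML2, a NOTCH coactivator, and LFNG, an enzyme that modifies NOTCH, fell, 10.4-fold (8.47 to 12.9) and 2.95-fold (2.83 to 3.07). Of 29 growth factor receptors and ligands 16 rose and 7 fell (median 1.17, 0.64 with no filter and 0.69 with YFP-negative cells as baseline); NTRK2, the receptor for BDNF, was at 0.431, 1.69, 3.27, 16.2 and 78.1 CPM, TGFA, an EGF receptor ligand, at 10.1, 18.2, 18.1, 25.5 and 96.6 CPM, and FOXO1, a factor restrained by insulin signalling, at 9.69, 14.4, 17.7, 36.6 and 116 CPM. Of 16 FGF pathway genes 6 rose and 1 fell, FGFR3 at 2.97, 4.85, 15.6, 59.6 and 178 CPM and FGF9 at 28.9-fold; the median of 0.13 turned to -0.10 with total counts and to -0.06 with YFP-negative cells as baseline. The FGF gene that fell was SPRY4, a feedback inhibitor, at 5.98-fold (3.53 to 10.8), a call lost with 2 CPM added (log2 ratio -0.64).

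WNT genes were divided: 15 of 35 rose (42.9%) and 8 fell (22.9%), beside 21.1% and 15.0% of all analysed genes. LEF1, the nuclear partner of beta-catenin, was at 16.2, 20.9, 33.2, 64.3 and 187 CPM, WNT4, a ligand, at 1.13, 0.863, 1.12, 2.67 and 16.8 CPM, and RNF43, which removes WNT receptors, at 7.19, 1.67, 1.58, 0.797 and 0.297 CPM. The list's median of 0.08 turned to -0.15 with total counts and -0.03 with the TPM and was 0.95 with YFP-negative cells as baseline. BMP genes had 11 of 20 higher and 5 lower: BMP2 was at 5.62, 11.9, 32.6, 90.5 and 153 CPM, ID4, a BMP target, at 3.49, 6.86, 13.7, 37.3 and 78.5 CPM, and BMP6 5.18-fold higher, beside the lower BMP4 given above. In TGF-beta and activin genes 9 of 26 fell and 5 rose (median -0.32). INHBA, an activin subunit, was at 67.2, 61.6, 45.3, 24.9 and 8.73 CPM; FST, which binds activin, rose 5.98-fold (5.74 to 6.22).

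Immediate early factors had 10 of 21 higher (47.6%) and 3 lower (14.3%), beside 21.1% and 15.0% of all analysed genes. Their median was 0.87, and 0.52 with 2 CPM added. NR4A2 and NR4A3, orphan nuclear receptors, were at 2.64, 7.53, 14.2, 45.4 and 83.4 CPM and at 6.24, 9.30, 14.7, 33.2 and 92.2 CPM. MYC was at 126, 145, 102, 56.7 and 53.5 CPM and KLF6 at 80.7, 78.3, 64.6, 36.6 and 16.1 CPM, the former higher in YFP-negative than in parental cells and both lower in YFP-high. MAP kinase phosphatases, the feedback of that pathway, had 4 of 8 higher and 0 lower, DUSP9 at 4.84-fold and DUSP7 at 3.66-fold. YAP and TEAD genes were divided, 4 of 18 higher (22.2%) and 6 lower (33.3%), beside 21.1% and 15.0% of all analysed genes. TEAD4 itself was at 75.5, 108, 209.8, 373 and 401 CPM, whereas its targets ANKRD1 and CTGF were at 291, 331, 289, 169.7 and 61.9 CPM and at 363, 670.3, 432, 226 and 91.7 CPM.

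Inflammatory genes were more often higher than lower, as were all analysed genes (21.1% higher and 15.0% lower). Of 21 NF-kB and inflammatory genes 10 rose and 2 fell (median 0.92, and 0.59 with no filter), while the median was 0.54 for YFP-negative against parental cells and 0.04 for YFP-high against YFP-negative cells. NFKBIZ, an atypical inhibitor of NF-kB, was at 20.0, 46.2, 62.1, 86.8 and 89.3 CPM, IRF1 at 9.99, 15.6, 20.2, 40.9 and 58.9 CPM, and PTGS2 (COX-2) at 4.58, 6.15, 8.94, 11.3 and 24.8 CPM. The chemokine CCL2 fell, at 11.98, 23.98, 17.3, 9.30 and 3.49 CPM, and CSF2 fell from 68 to 7 reads, a call lost with 2 CPM added (log2 ratio -0.44). Of 15 IL-6 family genes 3 rose (20%), near the share of all analysed genes, and 4 fell (26.7%). JAK2, a kinase of cytokine receptors, and SOCS3, its feedback inhibitor, were 6.30 and 3.24-fold higher, while CTF1, a cytokine of the same family as LIF, was 7.87-fold (6.03 to 10.4) lower. Among 22 interferon-stimulated genes 5 fell and 2 rose (median -0.60, and -0.32 with no filter): IFIT1 was at 7.09, 2.28, 1.51, 0.944 and 0.329 CPM and IFI44 at 6.07, 1.29, 1.14, 0.826 and 0.407 CPM, with USP18, which restrains interferon signalling, at 3.27, 2.91, 5.78, 13.9 and 50.5 CPM. IFIT1 and IFI44 fell most between parental and YFP-negative cells.

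The matrix list moved most to the lower side. Of 42 collagens, laminins and integrins 18 fell and 4 rose, and the median of -0.83 was the lowest of the lists; with YFP-negative cells as baseline it was -0.20. COL3A1, a fibrillar collagen, was at 84.8, 17.2, 14.4, 12.3 and 8.28 CPM, THBS1, a matrix glycoprotein, at 1289, 809.9, 592, 419 and 271 CPM, and COL11A1 at 125, 61.7, 52.9, 36.4 and 26.3 CPM. ITGB4, an integrin of epithelial anchors, rose, at 21.2, 14.2, 32.6, 105 and 225 CPM. COL1A1, the main collagen of bone, was at 3271, 1254, 1090.3, 944 and 750.4 CPM, 4.36-fold (4.32 to 4.40) lower in YFP-high, and its log2 ratio against YFP-negative cells was -0.74.

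Of 31 cholesterol and fatty acid synthesis genes 11 fell, 1 rose and 19 did neither (median -0.70). LSS, which closes the sterol rings, was at 179, 95.1, 79.5, 65.0 and 62.7 CPM and MVK, of the mevalonate pathway, at 29.1, 22.7, 16.4, 13.0 and 9.91 CPM. LSS fell mostly at the first step, whereas MVK fell at each. The 1 higher gene was IDI1, at 2.10-fold (2.00 to 2.21), which was not called with total counts. Of 38 glycolysis and hypoxia genes 9 rose (23.7%) and 8 fell (21.1%), near the 21.1% and 15.0% of all analysed genes, and their median of 0.01 turned to -0.23 with total counts, -0.10 with the TPM and -0.045 with a filter of 5 CPM. EPAS1 (HIF-2 alpha), an oxygen-regulated factor, was at 25.8, 41.0, 47.2, 77.6 and 318 CPM, KDM3A, a demethylase induced by low oxygen, 4.66-fold (4.49 to 4.84) higher, and SLC2A3, a glucose transporter, 4.44-fold (4.10 to 4.82) lower.

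None of 44 cytosolic ribosomal protein genes was called (median -0.34), RPL23 at 427, 335, 323, 285 and 233 CPM and RPL13A at 913, 829, 769, 667 and 499 CPM; these genes have many pseudogenes, so their counts are uncertain. None of 37 nuclear-encoded oxidative phosphorylation genes was called either (median -0.15). Ribosome biogenesis genes had 6 of 32 lower (18.8%) and 3 higher (9.38%), beside 15.0% and 21.1% of all analysed genes. RRS1 was at 48.0, 76.0, 55.9, 34.1 and 15.8 CPM and POLR1A, the large subunit of RNA polymerase I, at 142, 132, 125, 103 and 52.2 CPM. RRS1 was highest in YFP-negative cells. The MYC network had 5 of 12 higher, MXD1, a MYC antagonist, at 3.86-fold (3.13 to 4.80), and MYC as the 1 lower gene.

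Among chromatin genes, the Polycomb and DNA methylation list had 9 of 25 higher and 1 lower (median 0.56). EZH2, the Polycomb methyltransferase, was at 27.5, 48.7, 106, 149.9 and 133 CPM, SUZ12, its partner, at 100.1, 119.6, 179.5, 288 and 378 CPM, and CBX2, a reader of that mark, at 120.0, 101, 226, 479.6 and 538 CPM. TET1 was the lower gene. TERF2, a telomere-binding protein, was 4.07-fold (3.91 to 4.25) higher, the 1 call among 10 telomere genes.

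Stress pathway lists held smaller shares of called genes than the 36.1% of all analysed genes. In the autophagy and lysosome list 5 of 28 rose and 3 fell: TFEB, the factor that drives lysosome genes, was at 6.99, 7.13, 7.87, 13.5 and 55.5 CPM, ULK2, a starter kinase of autophagy, 5.66-fold (5.16 to 6.22) higher, and CTSL1, a cathepsin, 2.41-fold (2.33 to 2.50) lower. The list's median of 0.02 turned to -0.21 with total counts and to -0.09 with the TPM. ATF4 stress genes had 2 of 26 higher and 3 lower, CHAC1 at 2.65-fold up and NUPR1 at 3.03-fold down. Chaperones had 3 of 29 higher and 1 lower, HSP90AA1 at 1207, 1428, 1819, 2483 and 3099.7 CPM and the small heat shock protein HSPB1 at 750.3, 454, 379, 323 and 280.1 CPM. Genes tied to the oestrogen receptor had 5 of 18 higher and 4 lower. ESR2, the oestrogen receptor beta gene, was at 1.45, 2.04, 4.36, 9.87 and 20.1 CPM. MYB, which is also on this list, was 50.6-fold (44.4 to 57.9) higher, and CA12 and RARA, classic targets, were 4.17 and 3.84-fold lower.

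**Figure D5:**
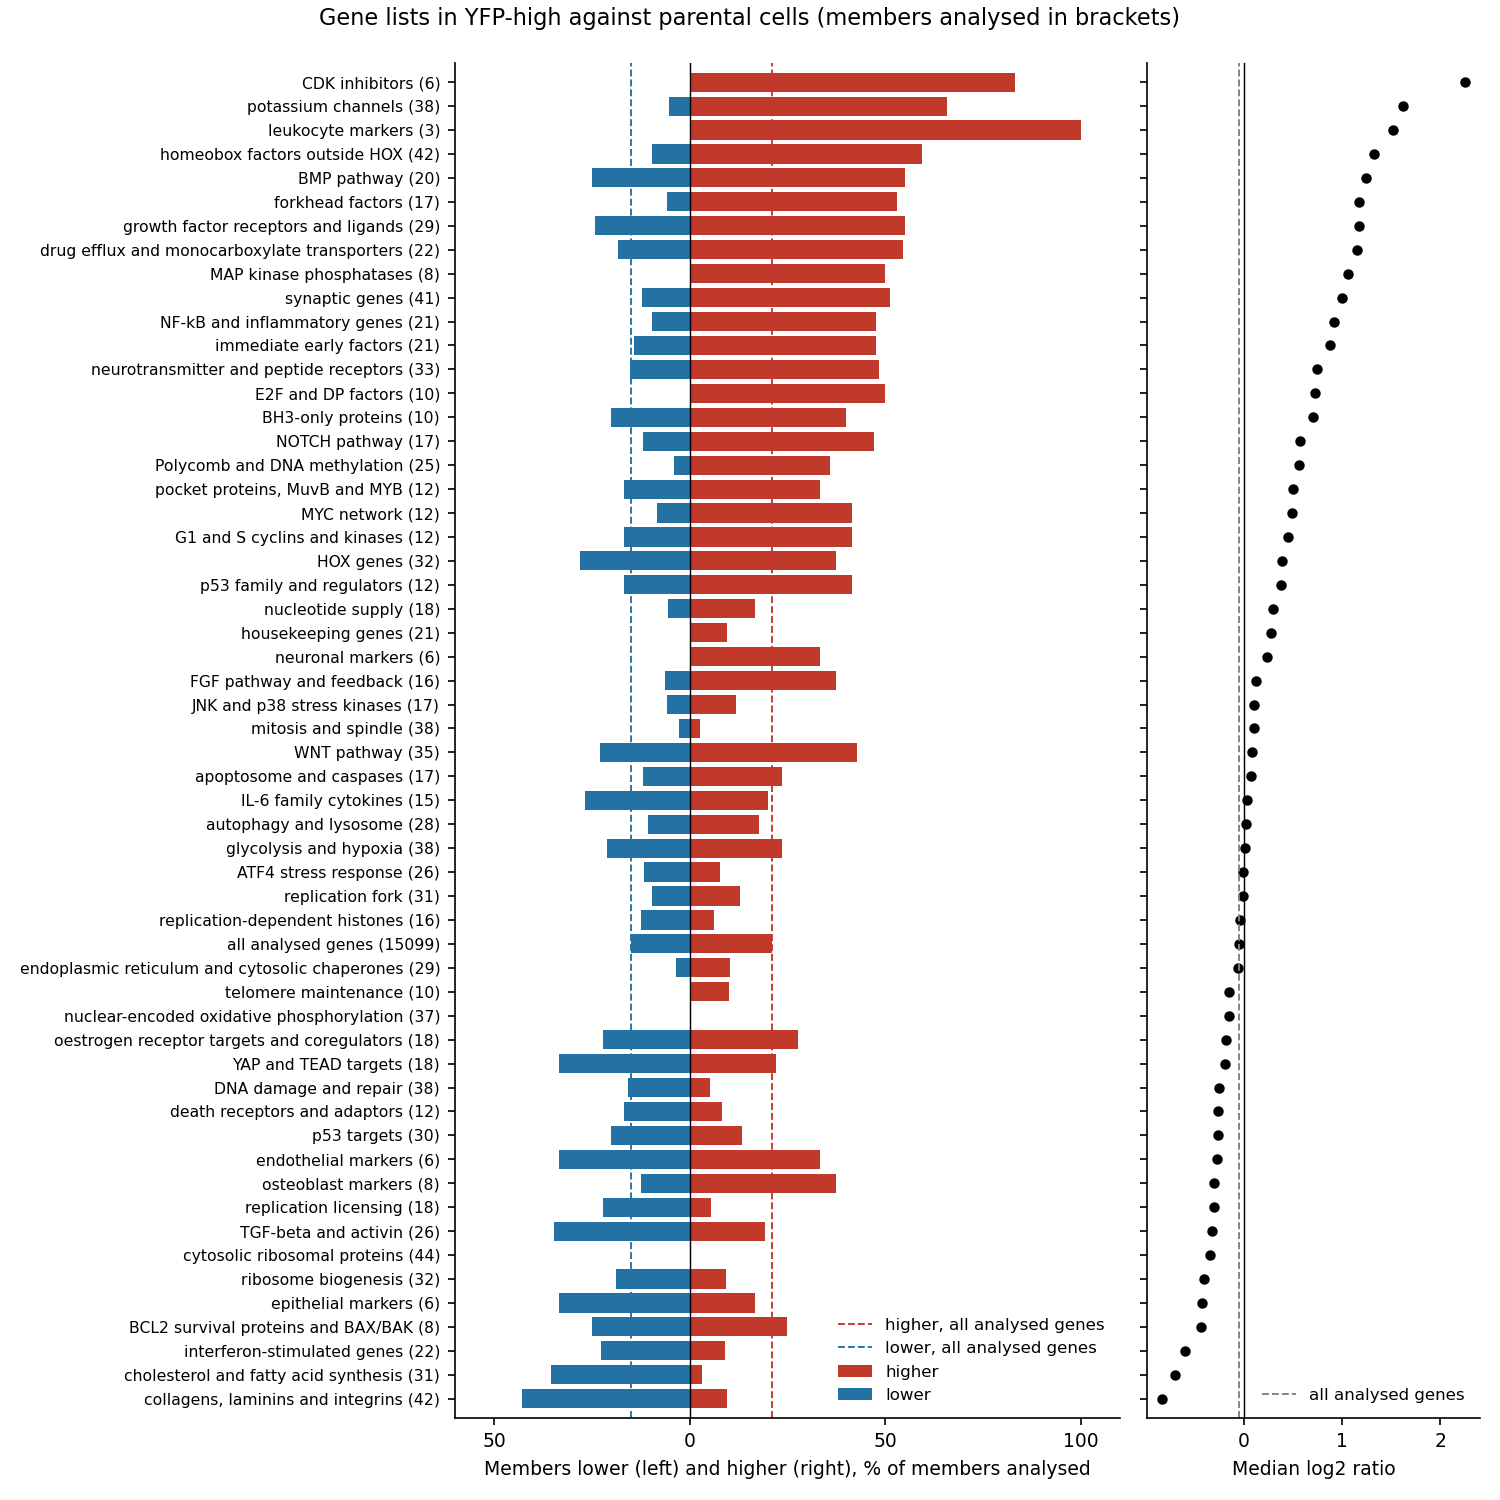
Calls in the gene lists: for each list, the share of its analysed genes called higher (red, to the right) and lower (blue, to the left) in YFP-high against parental cells, with the number analysed in brackets and the row of all 15099 analysed genes (21.1% and 15.0%) for comparison; points at the right give the median log2 ratio of each list. CDK inhibitors and potassium channels lie far to the higher side, and the matrix and cholesterol lists to the lower side.

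Marker lists were used to check the cell type and other cells. Of 13 osteoblast markers 8 passed the filter, 3 rose and 1 fell; their summed level was 4705 CPM in parental cells, 2302 in YFP-negative and 1796 in YFP-high, and COL1A1 made up 3271, 1254 and 750.4 CPM of these sums. SP7 and IBSP had 0 reads in parental cells and 7 and 1 in YFP-high, and BGLAP had 3 and 0. RUNX2, which was not called, was at 50.7 CPM in parental cells and 39.9 CPM in YFP-high. Of 8 leukocyte markers 3 passed the filter and all 3 rose. The list summed to 12.8 CPM in parental cells and 235 in YFP-high, of which IKZF1 made up 1.31 and 204 CPM. LCP1 was at 5.83, 17.9, 16.6, 14.3 and 15.5 CPM, so its rise lay between parental and YFP-negative cells. PTPRC, under the filter, went the other way, with 47, 27, 18, 11 and 3 reads, and CD3E had 2 reads in YFP-high. Among endothelial markers PECAM1 and CDH5 went from 10 and 13 reads to 0 and 1, and TEK and VWF fell from 139 and 213 reads to 39 and 28, calls lost with 2 CPM added (log2 ratios -0.53 and -0.95), while KDR rose from 7 to 120 reads and ERG from 501 to 1109. Among epithelial markers EPCAM rose from 364 to 736 reads. KRT5 and KRT14 fell, with 210, 24, 11, 21 and 6 reads and with 306, 50, 33, 16 and 6. Most of both drops lay between parental and YFP-negative cells. SYP and RBFOX3, neuronal markers, rose from 369 to 1314 and from 951 to 1773 reads, and RBFOX3 was not called with total counts. The other neuronal markers analysed were not called. TUBB3 went from 178 to 90.4 CPM, MAP2 from 14.3 to 11.5, SNAP25 from 7.37 to 7.59 and NEFL from 67.2 to 90.3. Epithelial markers summed to 578 and 454 CPM, endothelial to 14.7 and 23.2, and neuronal to 284 and 248; KRT19 and CLDN4 had 0 reads throughout. The part of other cells in any result was not tested, and in bulk RNA fewer cells of a kind and less RNA per cell cannot be told apart. Of 21 housekeeping genes 2 rose and 0 fell (median 0.28), among them REEP5 at 2.30-fold (2.20 to 2.39), which was not called with total counts.

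Genes of 3 regions with more than 1 placement in human assemblies, the pseudoautosomal regions, the MHC and 17q21, gave 16 higher and 7 lower calls among 61 analysed genes. CD99 had 29, 34, 43, 33 and 1269 reads, EHMT2 296, 8, 6, 6 and 66, and ASMTL 159, 29, 334, 305 and 29. EHMT2 and ASMTL do not follow the order of the YFP gates, whereas CD99 jumped in YFP-high only. With more than 1 placement, counts of genes in these regions are uncertain. Without the 61 genes 3173 were higher and 2254 lower.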

How the data were processed

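RNA of 5 U2OS libraries, 1 per group, was sequenced on HiSeq 4000 per the labels. Per the submitters' processing notes the tools were CASAVA 1.8.2, bcl2fastq, Trimmomatic 0.36, HISAT2 2.0.3 and HTSeq 0.6.0 with hg19; annotation and strand setting: not given in the sources used here. Counts of genes that overlap or lie antisense to another are therefore uncertain. The authors deposited raw counts per gene name, used for all levels and ratios, and TPM values, used as an alternative. The row with no gene name held at most 0.00073% of a library's reads and was left out. Counts were scaled with TMM (edgeR 4.0.16), filtered at 1 CPM in at least 1 library and called past 2-fold with 0.5 CPM added; exact Clopper-Pearson intervals (95%, scipy 1.17.1) and the floor of 3 reads cover counting error only, since PCR copies are not independent molecules. The code was tested on simulated counts. The genes, lists and rules were chosen with earlier results of these data known. Named genes were E2F1 and ESR1, the 12 per direction whose interval lies farthest from no change, up to 4 per list by absolute log2 ratio plus at most 3 called members against the list's direction, and 6 per direction that differ mainly in YFP-negative cells, move at each of 4 steps, or turn back between YFP-negative and YFP-high; genes of 3 regions with several placements were named apart. Some genes that the rule names are not reported here. A check of promoter GC content was void, since only 73.1% of analysed genes matched a window. Alternatives were DESeq2's size factors (1.42.0), total counts, TPM, other filters, pseudocounts, folds and baselines.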

Additional observations from a re-analysis of the deposited data

Results flagged for a closer look

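Reads outside the genes analysed were more numerous in YFP-high than in the other libraries. The row of the count table with no gene name held 682 reads in YFP-high, against 279 in parental cells and 207 to 254 in the other 3 fractions, 3.02-fold (2.62 to 3.48) above parental cells after scaling. Reads that fell outside annotated genes made up 11.03% of all reads in YFP-high, against 9.60% in parental cells and 9.11% to 9.86% in the other 3. Where these reads lie in the genome was not analysed here.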

How the results depend on the processing

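With 1 library per group no spread between samples could be measured, and depth limits mainly genes near the floor of 3 reads, 0.0380 CPM in parental and 0.0469 CPM in YFP-high cells. No paired analysis was possible because each group has 1 library. The size rule moved the counts most: a 1.5-fold rule gave 4501 higher and 4277 lower genes, and a 4-fold rule 1253 and 349. The other alternatives stayed within 1.5 times of the main counts: 3293 and 2084 with DESeq2's size factors, 2648 and 3192 with total counts, 2837 and 2561 with the TPM, 3357 and 2308 with no filter, 2571 and 1788 with a filter of 5 CPM, 2640 and 1546 with 2 CPM added, 3062 and 1712 against YFP-negative cells, and 3079 and 1887 against the mean of both baselines. Of 55 lists 33 had a median above 0, against 25 with total counts, 26 with the TPM and 36 with DESeq2's size factors. With no filter the median of neurotransmitter and peptide receptors was 0.17 and of homeobox factors 0.74. Against YFP-negative cells 20 of 280 named genes changed sign, by construction of the rule for most of them: HIST1H2AC 0.15, BMF 1.10, TET1 0.84, LCP1 -0.20, TMEM71 -0.040, CCDC148 -0.085, ELTD1 -0.28, NLRP3 -1.34, SLAMF7 -1.26, ANTXR2 -1.02, LPXN -0.71, LOC152225 -0.68, RAC2 -0.66, CXCL14 0.35, MN1 0.10, LRRC15 0.067, WNT11 2.69, NTRK3 1.25, LAMA5 1.01 and BMP4 0.97 as log2 ratios. Against the mean of both baselines NLRP3 was at -0.17, SLAMF7 at -0.12 and WNT11 at 0.55. No named gene changed sign under the other alternatives. YFP-negative cells as baseline ended a further 50 calls of named genes, the mean of both baselines 30, the 4-fold rule 110, total counts 18, the TPM 9, DESeq2's size factors 3 and 2 CPM added 11.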

Other observations

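The gene families below were picked by name after their values were seen. Of 38 analysed genes with protocadherin names, cell adhesion proteins of the nervous system, 5 rose and 20 fell, with a median log2 ratio of -1.16. PCDH9 was at 7.13, 11.1, 24.5, 70.7 and 112 CPM and is 1 of the 5 that rose. Clustered protocadherins share exons, so their counts are uncertain. Of 463 genes with ZNF names, mostly zinc finger factors, 44 rose and 105 fell (median -0.45, and -0.67 with total counts). Of 247 genes with SLC names, solute carriers, 70 rose (28.3%) and 48 fell (19.4%), with a median of -0.04 against -0.05 over all analysed genes, of which 21.1% rose and 15.0% fell.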
